A study of Chlorella sp. with 12 samples.

Results

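Fermentation enzymes and hydroxylamine reductase were examined in *Chlorella* sp. TLD6B, a unicellular green alga, at the level of the assembled unigenes. A unigene was a member if its KEGG Orthology (KO) ID was that of 1 of 8 enzymes, namely formate C-acetyltransferase (K00656), its activating enzyme (K04069), aldehyde-alcohol dehydrogenase (K04072), pyruvate decarboxylase (K01568), acetate kinase (K00925), phosphate acetyltransferase (K00625), pyruvate-ferredoxin/flavodoxin oxidoreductase (K03737) or hydroxylamine reductase (K05601), or if its SwissProt description named hydroxylamine reductase. This rule found 81 of 155503 unigenes, made up of 47 hydroxylamine reductase, 30 pyruvate decarboxylase and 4 formate C-acetyltransferase unigenes. The other 6 KO IDs had no unigene, and all 47 hydroxylamine reductase unigenes came from the SwissProt description. The members were selected on their KO ID or description together with their FPKM by unigene and summed by KO over all 6 groups. Their levels and fitted changes are therefore given as a description and support nothing further. The same holds for whether a member or a sum of members was past the thresholds of a fit.

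The study followed the strain under added NaCl, and the labels also give groups under drought stress imposed with polyethylene glycol (PEG-6000). RNA was sequenced from 2 libraries in each of 6 groups. All groups carried the same strain in BBM mineral medium, with no genetic change. CK0 was taken untreated at day 0 and CK18 untreated at day 18. Nacl1 and Nacl2 were low and high salinity, 0.1 M and 0.8 M NaCl, and PEG1 and PEG2 received 0.05 g/mL and 0.1 g/mL PEG-6000, all sampled at day 18. Values are FPKM, fragment numbers divided by unigene length and by how many fragments mapped in that library. No read counts were at hand, so the depth behind a value is unknown. In these bulk samples, fewer cells that express a gene and less RNA per cell cannot be told apart.

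Green algae ferment starch when oxygen runs out, as in the dark. Formate C-acetyltransferase (pyruvate formate-lyase) splits pyruvate into acetyl-CoA and formate through an oxygen-sensitive glycyl radical, and pyruvate decarboxylase removes CO2 from pyruvate to give acetaldehyde, which alcohol dehydrogenases reduce to ethanol. Hydroxylamine reductase, also called hybrid cluster protein or prismane, is an iron-sulfur protein that reduces hydroxylamine to ammonia in the test tube, reduces nitric oxide in *Escherichia coli*, and is known in *Chlamydomonas* as a protein of anoxic cells.

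Summed FPKM ran from 2218733 to 3775374 per library, and 72356 to 98278 unigenes were above 0. Log values of the 2 libraries of a group correlated across unigenes at 0.848 to 0.898. Of the FPKM of unigenes with an NR (protein database) hit, 2.78% to 7.69% lay in those whose best hit was outside the green algae, highest in a CK0 library. Log2 fold changes were computed after scaling the libraries by median ratios. Without that scaling, the median unigene was higher by 0.57 (log2) in Nacl1, 0.37 in Nacl2, 0.72 in PEG1 and 0.04 in PEG2 than in CK18, and the median KO sum by 0.76, 0.92, 0.62 and 0.06. From CK0 to CK18 these medians were -1.12 and -1 without scaling. Fold changes below are relative to these shifts, whereas the FPKM values are printed as deposited.

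The annotation of the hydroxylamine reductase unigenes was uneven. Of the 47, 46 carried the prismane family domain, all had a bacterial or archaeal protein as best SwissProt hit, and 38 had the same best NR hit, the *Chlorella variabilis* protein XP_005851548.1. A further 7 matched XP_005853562.1 of *Nannochloropsis gaditana*, 1 matched XP_001694756.1 of *Chlamydomonas reinhardtii* and 1 matched KIZ00758.1 of *Monoraphidium neglectum*. Lengths ran from 223 to 3582 bp with a median of 1291 bp, and 14 unigenes carried K14328, the KO of the RNA surveillance factor UPF3. The other 33 had no KO. With so many short unigenes for 1 protein, some may be fragments or assembly variants of the same gene, and the reads of near-identical copies could have been divided between them. Of the 47 unigenes, 6 were listed at 0 in every library and 36 reached 1 FPKM in at least 1 library.

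The hydroxylamine reductase unigenes formed a large transcript pool in untreated day-18 cells and a small one at day 0. Their summed FPKM was 456 and 616 in CK0, 19886 and 41344 in CK18, 4451 and 3101 in Nacl1, 1718 and 1717 in Nacl2, 3076 and 2758 in PEG1, and 28083 and 19109 in PEG2. CK18 and PEG2 overlapped at the top, CK0 lay lowest, and the other 3 groups lay between without overlap, though the higher PEG1 library (3076) and the lower Nacl1 library (3101) nearly touched. The ratio of group means of CK18 was 57.1 to CK0, 8.11 to Nacl1, 17.8 to Nacl2, 10.5 to PEG1 and 1.3 to PEG2. The pool made up 0.017% to 1.11% of all FPKM, the most in CK18 replicate 2. The CK18 libraries themselves differed 2.08-fold. Among the 36 unigenes that reached 1 FPKM, 29 were higher in replicate 2 of CK18 and 2 in replicate 1, with a median ratio of 2.13. The same count over all unigenes was not made, and most of the 36 share an NR hit, so nothing is read from it.

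**Figure D1:**
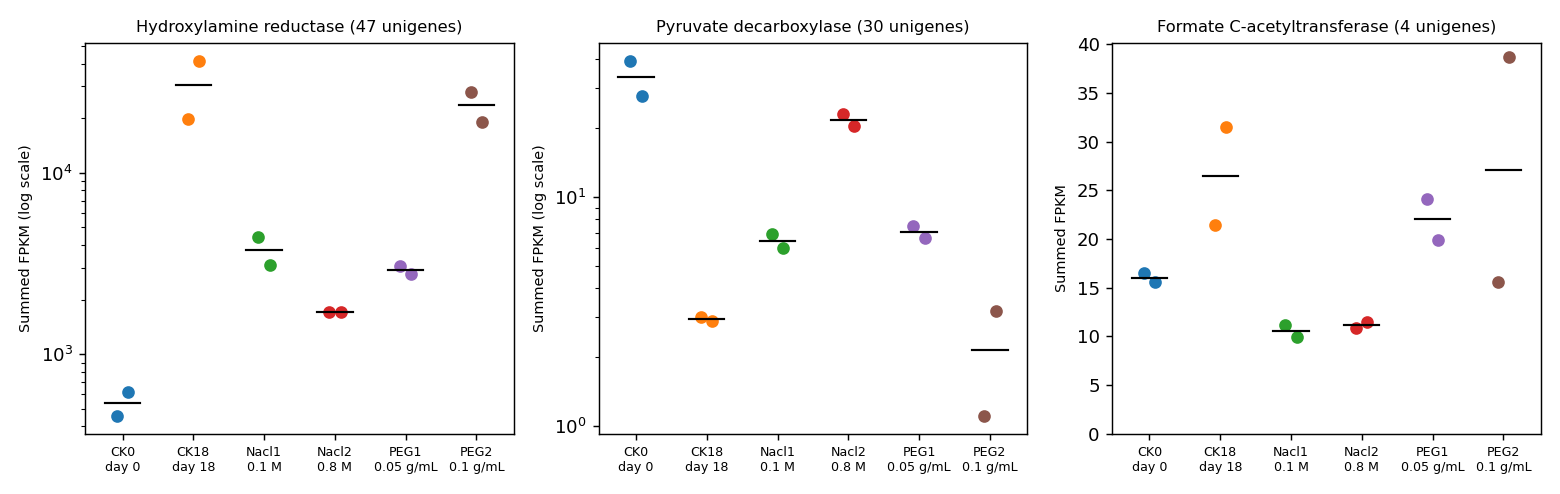
Summed FPKM of the 3 enzymes by group, on a log axis for hydroxylamine reductase and pyruvate decarboxylase and a linear axis for formate C-acetyltransferase. Each point is a library and each bar the mean of 2 libraries. Hydroxylamine reductase was between 19109 and 41344 in CK18 and PEG2 and at most 4451 elsewhere, while pyruvate decarboxylase was highest in CK0 and Nacl2.

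Short unigenes carried most of this pool. FPKM divides by length, so a sum over fragments of 1 protein is not the level of a gene, and the 13 unigenes under 600 bp held 82.5% to 93.8% of the sum. The 16 unigenes over 2500 bp held 0.266% to 2.15%. Weighting each FPKM by unigene length gave sums (FPKM times length in kb) of 199 and 278 in CK0, 9980 and 21000 in CK18, 1960 and 1380 in Nacl1, 792 and 807 in Nacl2, 1430 and 1280 in PEG1, and 16900 and 9350 in PEG2. The order of the groups by their means was the same with this weighting, but CK18 and PEG2 still overlapped, and Nacl1 and PEG1 now overlapped as well.

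The most abundant hydroxylamine reductase unigene, Cluster-31803.47539 (451 bp), was at 164 and 260 FPKM in CK0, 8210 and 15961 in CK18, 1635 and 1219 in Nacl1, 633 and 606 in Nacl2, 1078 and 965 in PEG1, and 6582 and 7670 in PEG2. Cluster-31803.64385 (239 bp) was at 119 and 111 FPKM in CK0, 3360 and 7227 in CK18, 899 and 626 in Nacl1, 360 and 306 in Nacl2, 544 and 601 in PEG1, and 3566 and 3973 in PEG2. For both unigenes the salt and PEG1 libraries stood clear of CK18 on the low side and of CK0 on the high side. Cluster-31803.73941 (343 bp), Cluster-31803.47537 (255 bp) and Cluster-31803.73944 (274 bp) were ordered alike at 68 to 98.3, 27.7 to 42 and 8 to 9.68 FPKM in CK0 against 2322 to 5057, 1421 to 2449 and 261 to 521 FPKM in CK18. In PEG2 these 3 were at 2297 to 2378, 1158 to 1173 and 184 to 237 FPKM, at or below the lower CK18 library or just above it. The fitted log2 fold change of Cluster-31803.47539 was 6.63 (SE 0.54) in CK18 vs. CK0, -3.53 (SE 0.32) in Nacl1 vs. CK18, -4.45 (SE 0.32) in Nacl2 vs. CK18, -4.01 (SE 0.33) in PEG1 vs. CK18 and -0.77 (SE 0.33) in PEG2 vs. CK18.

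A pair of unigenes set the PEG2 libraries apart from each other. Cluster-31803.28819 (546 bp) was at 9293 and 1752 FPKM in PEG2, a ratio of 5.31, against 1800 and 4979 in CK18 and 22.5 and 32.3 in CK0. Cluster-31803.83648 (1291 bp) was at 4244 and 1025 FPKM in PEG2, a ratio of 4.14, against 1243 and 2485 in CK18 and 17 and 22.5 in CK0. Together they held 48.2% of the pool in PEG2 replicate 1 and 8.66% to 18.1% in the other libraries. Without them, the sum was 14546 and 16332 FPKM in the PEG2 libraries, so the 2 replicates were close and the higher first value came from these unigenes alone. In the salt groups and PEG1 the pair did not stand apart, with Cluster-31803.28819 at most at 388 FPKM and Cluster-31803.83648 at most at 223 FPKM.

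**Figure D2:**
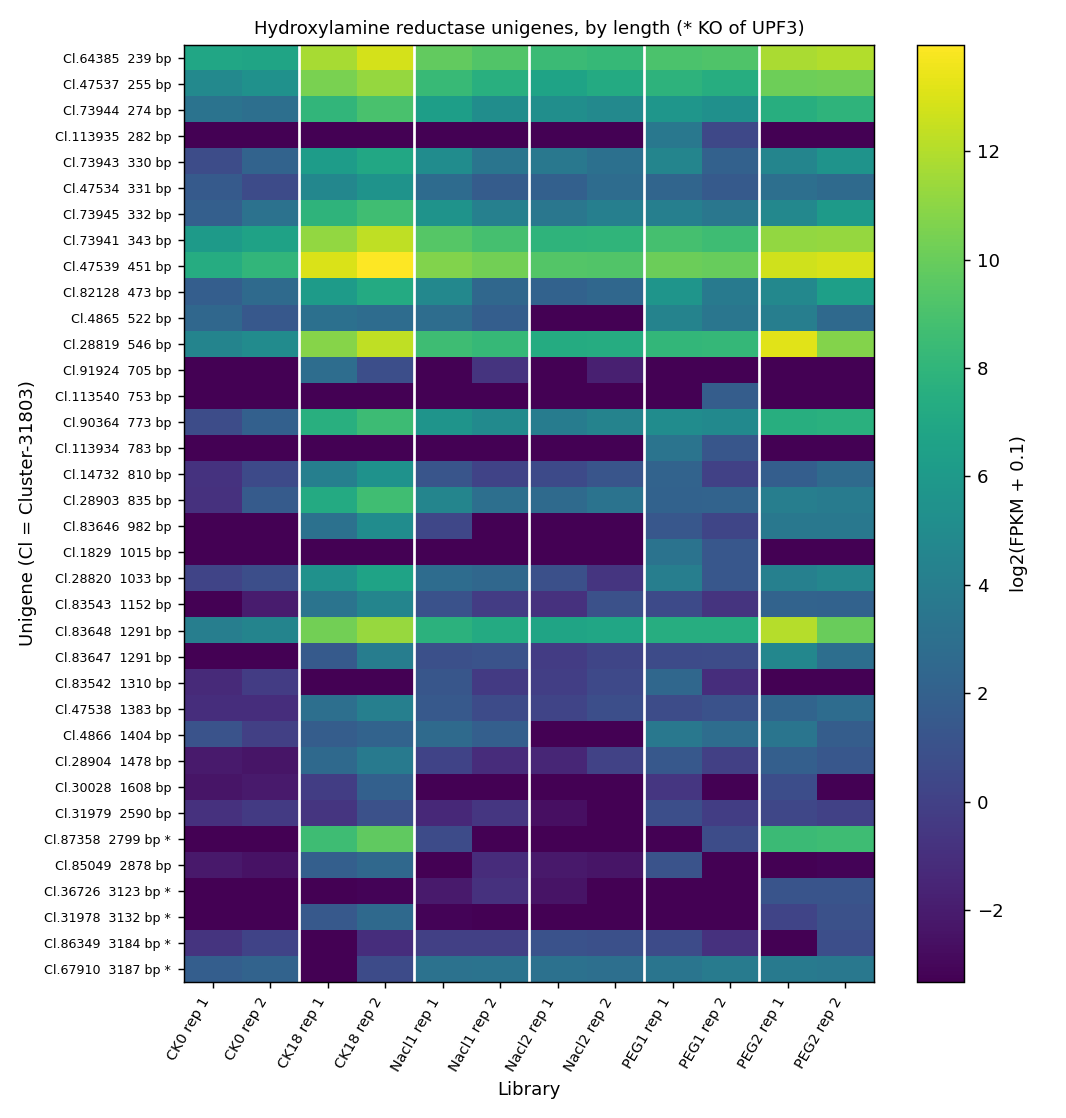
FPKM of the 36 hydroxylamine reductase unigenes that reached 1 FPKM in at least 1 library, as log2(FPKM + 0.1), with unigenes ordered by length and libraries in columns. Most rows were brightest in CK18 and PEG2, while Cluster-31803.1829, Cluster-31803.113934 and Cluster-31803.113935 were above 0 in PEG1 only.

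A near on-off pattern was seen in a long unigene. Cluster-31803.87358 (2799 bp), which carries K14328 beside the prismane domain, was at 392 and 854 FPKM in CK18 and 354 and 392 FPKM in PEG2. It was listed at 0 in both libraries of CK0 and Nacl2 and in 1 library each of Nacl1 and PEG1, and was at 1.42 FPKM in the other Nacl1 library and 1.51 FPKM in the other PEG1 library. Another variant with the same NR hit and KO, Cluster-31803.67910 (3187 bp), was at far lower levels and lowest in CK18, where Cluster-31803.87358 was highest, while both were high in PEG2. It was at 3.57 and 4.48 FPKM in CK0, 0 and 1.48 in CK18, 9.12 and 9.28 in Nacl1, 8.5 and 7.99 in Nacl2, 10.6 and 14.3 in PEG1, and 13.3 and 12 in PEG2, so that every treated library exceeded every control library. Cluster-31803.36726 (3123 bp), also with K14328, was at 2.19 and 2.18 FPKM in PEG2 and at most 0.44 FPKM elsewhere. Cluster-31803.67910 and Cluster-31803.36726 were singled out after their values were seen. The 7 unigenes of K14328 that do not name hydroxylamine reductase summed to 16.2 and 19 FPKM in CK0, 55 and 66.7 in CK18 and 43.5 to 96 in the treated groups, which spanned less than the members of this KO.

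The 7 unigenes with the *Nannochloropsis* hit departed from the rest. Their sum was 2.08 and 0.87 FPKM in CK0, 3.27 and 4.38 in CK18, 6.31 and 3.58 in Nacl1, 0.1 and 0.03 in Nacl2, 43.7 and 16.6 in PEG1, and 10.5 and 3.25 in PEG2. Both PEG1 libraries were above all others, and Nacl2 was at or near 0. Cluster-31803.1829 (1015 bp) was listed at 9.42 and 2.44 FPKM in PEG1 and at 0 in the other 10 libraries. Cluster-31803.113934 (783 bp) and Cluster-31803.113935 (282 bp) were likewise above 0 only in PEG1, at 9.97 and 2.42 FPKM and at 12.3 and 1.27 FPKM. Cluster-31803.4865 (522 bp), with the *Chlamydomonas* hit, was also highest in PEG1, at 21.3 and 11.2 FPKM, and listed at 0 in Nacl2. Whether these unigenes come from the alga or from another organism in the flask was not tested. These unigenes were grouped after their values were seen.

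The members past the DEG thresholds of each comparison were also counted. The thresholds were those of a DEG (differentially expressed gene) call, a Benjamini-Hochberg adjusted p below 0.05 over all unigenes tested together with a log2 change of 1 or more in either direction, here from limma on log2(scaled FPKM + 0.1). A filter of 0.3 FPKM in at least 2 libraries of a fit left 45 of the 81 members in at least 1 comparison, namely 35 hydroxylamine reductase, 7 pyruvate decarboxylase and 3 formate C-acetyltransferase unigenes. As the rule used these same contrasts, nothing is read from the counts or from the shares of all unigenes beside them.

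In CK18 vs. CK0, 27 of 40 members tested were past the thresholds on the higher side and 4 on the lower, where 32% of all unigenes were past them (13.7% higher and 18.3% lower). Among hydroxylamine reductase unigenes it was 26 higher and 1 lower of 31, with a median log2 fold change of 6.01 against -0.41 over all unigenes. The count of members was 17 without CK18 replicate 1 and 19 without CK18 replicate 2. The 1 lower was Cluster-31803.83542 (1310 bp), at 0.31 and 0.75 FPKM in CK0 and listed at 0 in CK18. It was among 6 of the 31 in which a group was listed at 0. All 6 were past the thresholds and passed the filter only through the other group, so their direction was fixed. The median without these 6 was 6.01. Cluster-31803.83543, Cluster-31803.28904 and Cluster-31803.85049, at most 0.15 FPKM in CK0, also passed the filter only through CK18. They too had to come out higher, and all were past the thresholds.

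In Nacl1 vs. CK18, no member was past the thresholds on the higher side and 21 of 39 were on the lower, beside 9.02% of all unigenes (4.46% higher and 4.56% lower). Of 31 hydroxylamine reductase unigenes tested, 20 were lower, with a median log2 fold change of -3.53 against 0.17 over all unigenes. This count rested on every library of the salt fit. It was 5 without CK18 replicate 1, 6 without CK18 replicate 2, 0 without either Nacl1 library, 5 without Nacl2 replicate 1 and 3 without Nacl2 replicate 2. The log2 fold change of the hydroxylamine reductase sum ran from -4.22 to -3.13 over the salt fits with 1 library left out. In 2 of the 31 hydroxylamine reductase unigenes a group was listed at 0, and 1 of these was past the thresholds. Others near 0 in both salt groups, such as Cluster-31803.87358 and Cluster-31803.31978, also passed the filter only through CK18.

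In Nacl2 vs. CK18, 5 of 39 members were past the thresholds on the higher side and 29 on the lower, beside 35.3% of all unigenes (22.4% higher and 12.9% lower). Hydroxylamine reductase gave 28 lower and 2 higher of 31, with a median of -4.14 against 0.19. The 2 higher were Cluster-31803.83542, listed at 0 in CK18 and at 0.83 and 1.33 FPKM in Nacl2, and Cluster-31803.86349 (3184 bp), at 0 and 0.37 FPKM in CK18 and 1.98 and 1.75 FPKM in Nacl2. Without Nacl2 replicate 1 the count of members was 16, and without Nacl2 replicate 2 it was 21. In 7 of the 31 unigenes a group was listed at 0, and the median without them was -4.12. All 7 were past the thresholds, and a group at 0 could only be the lower one. Cluster-31803.85049 and Cluster-31803.91924, at most 0.18 FPKM in Nacl2, also passed the filter only through CK18 and were among the lower.

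In PEG1 vs. CK18, 3 of 39 members were past the thresholds on the higher side and 18 on the lower, beside 14.2% of all unigenes (9.49% higher and 4.69% lower). All 21 were hydroxylamine reductase unigenes, of 35 tested, and the median over the 35 was -3.57 against 0.29. The 3 higher were Cluster-31803.1829, Cluster-31803.113934 and Cluster-31803.113935, which were listed at 0 in all other groups and so passed the filter on low values only through PEG1, where they had to come out higher. None of the 21 stayed past the thresholds without any 1 of the CK18 or PEG1 libraries. The log2 fold change of the hydroxylamine reductase sum ran from -4.41 to -3.4 over the PEG fits with 1 library left out. In 7 of the 35 unigenes a group was listed at 0, and 5 of these were past the thresholds.

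In PEG2 vs. CK18, limma placed 0 of 39 members and 0% of 73149 unigenes past the thresholds, and 9 members and 10576 unigenes had an unadjusted p below 0.05. No other tool was run on this comparison. The median log2 fold change of the 35 hydroxylamine reductase unigenes was -0.72 against 0 over all unigenes.

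Pyruvate decarboxylase was high where the hydroxylamine reductase pool was lowest, at day 0 and under high salinity. Of its 30 unigenes (1272 to 5073 bp), 25 had the best NR hit XP_005847311.1, 3 had XP_005847477.1, both of *Chlorella variabilis*, and 2 had XP_010686333.1 of *Beta vulgaris*, all with thiamine pyrophosphate enzyme domains. Their summed FPKM was 39.3 and 27.7 in CK0, 3 and 2.87 in CK18, 6.88 and 6.02 in Nacl1, 23.1 and 20.4 in Nacl2, 7.49 and 6.65 in PEG1, and 1.11 and 3.2 in PEG2. CK0 was highest and Nacl2 second without overlap, Nacl1 and PEG1 overlapped, and PEG2 spanned CK18. The mean of CK0 was 11.4 times that of CK18, and the mean of Nacl2 was 7.42 times that of CK18. The enzyme was at most 0.00146% of all FPKM, and 3 of its unigenes were listed at 0 everywhere and 6 reached 1 FPKM.

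Most of this sum was 1 unigene. Cluster-31803.102796 (3929 bp) held 40.7% to 93.4% of it, at 28.8 and 18.9 FPKM in CK0, 2.27 and 1.86 in CK18, 5.39 and 5 in Nacl1, 18.1 and 16.2 in Nacl2, 3.05 and 4.59 in PEG1, and 1.01 and 2.99 in PEG2. Its log2 fold change was -2.62 (SE 0.33) in CK18 vs. CK0 and 2.77 (SE 0.26) in Nacl2 vs. CK18. Cluster-31803.29550 (4374 bp) was at 5.29 and 3.91 FPKM in CK0, listed at 0 in both CK18 libraries, at 0.28 in both Nacl1 libraries, at 1.22 and 1.34 in Nacl2, at 0.01 and 0 in PEG1, and at 0.06 and 0.09 in PEG2. As deposited, both unigenes were thus highest at day 0 and second highest at high salinity. After scaling, the 2 changes of Cluster-31803.102796 (-2.62 and 2.77) were of like size, so its order of CK0 and Nacl2 depended on the scaling. On the deposited scale, 16 of the 30 unigenes had their highest group mean in CK0, 6 in Nacl2, 3 in PEG1 and 2 in CK18. Only 6 of the 30 reached 1 FPKM, and without scaling the median unigene changed by -1.12 (log2) from CK0 to CK18. The share of all unigenes highest in CK0 was not computed, so nothing is read from this count. The pair with the *Beta vulgaris* hit was above 0 in PEG1 alone, each in a single library. Cluster-4101.0 was at 4 FPKM in PEG1 replicate 1 and Cluster-3287.0 at 0.86 FPKM in PEG1 replicate 2. Their best SwissProt hit was a protein of the fungus *Neosartorya fumigata*. Whether they come from another organism was not tested. The 25 unigenes with the XP_005847311.1 hit summed to 3.49 and 5.79 FPKM in PEG1, with a log2 fold change of 0.15 (SE 0.53) against CK18, where the sum of all 30 gave 0.64 (SE 0.50). Past the thresholds were 3 of 6 tested in CK18 vs. CK0 (all lower), beside 32% of all unigenes (18.3% lower). In Nacl2 vs. CK18 it was 3 of 5 (all higher), beside 35.3% (22.4% higher). In Nacl1 it was 0 of 5 (9.02%), in PEG1 0 of 1 (14.2%) and in PEG2 0 of 1 (0%). Cluster-31803.29550 and Cluster-31803.26121 passed the filter in CK18 vs. CK0 only through CK0, so they had to come out lower. Cluster-31803.29550 and Cluster-31803.88181 passed it in the salt fit only through Nacl2, so they had to come out higher. Nothing is read from these counts.

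**Figure D3:**
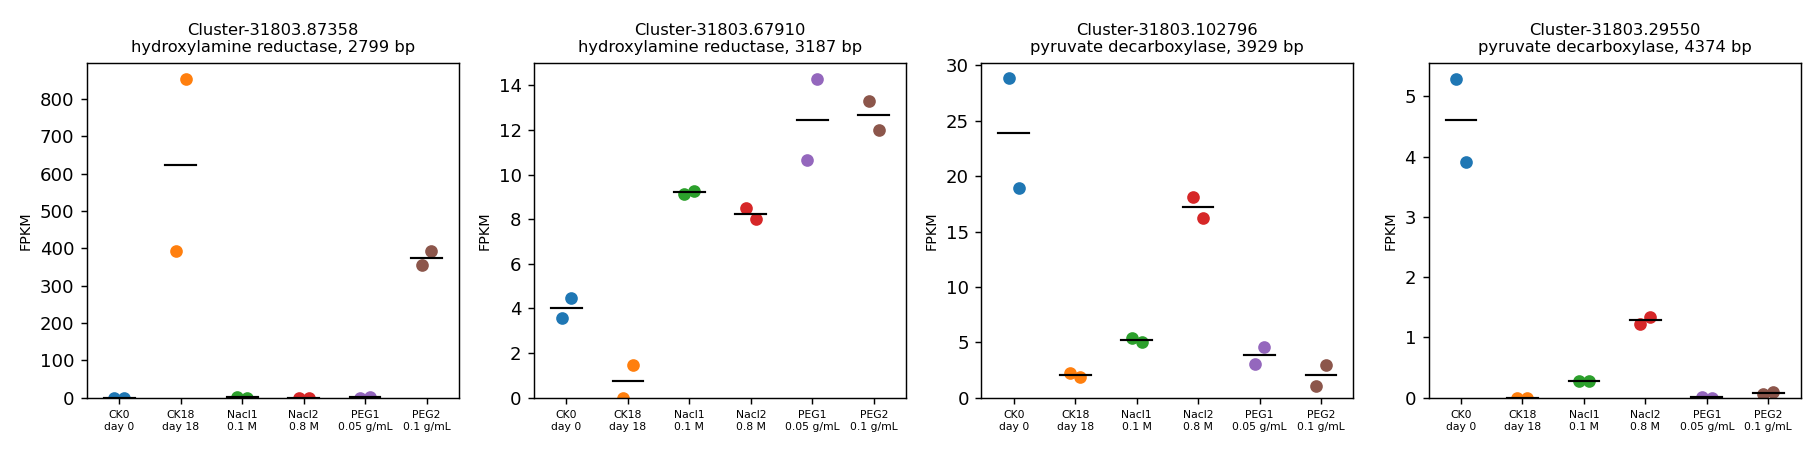
FPKM of 4 unigenes by group on linear axes, each point a library and each bar the mean of 2. Cluster-31803.87358 was above 2 FPKM only in CK18 and PEG2 and Cluster-31803.67910 was lowest in CK18. On this deposited scale the pyruvate decarboxylase unigenes were highest in CK0 and then in Nacl2.

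Formate C-acetyltransferase spanned the smallest range of the 3. Its 4 unigenes were long (8042 to 9089 bp) and shared the NR hit XP_005848244.1 of *Chlorella variabilis*. All carried a glycine radical domain, along with domains of unrelated proteins. The sum was 16.5 and 15.6 FPKM in CK0, 21.5 and 31.5 in CK18, 11.2 and 9.96 in Nacl1, 10.9 and 11.5 in Nacl2, 24.1 and 20 in PEG1, and 15.6 and 38.7 in PEG2. Both salt groups lay below every other library and overlapped each other, PEG1 overlapped CK18, and PEG2 spanned all but the salt groups. The highest library was 3.88 times the lowest, against 90.6 times for hydroxylamine reductase and 35.4 times for pyruvate decarboxylase.

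Cluster-31803.51795 held 68.9% to 97.6% of the formate C-acetyltransferase sum, at 11.4 and 12.2 FPKM in CK0, 20.1 and 30.6 in CK18, 10.1 and 8.86 in Nacl1, 10.2 and 10.7 in Nacl2, 22.2 and 19 in PEG1, and 14.3 and 37.7 in PEG2. Its log2 fold change was -1.89 (SE 0.27) in Nacl1 vs. CK18 and -1.48 (SE 0.27) in Nacl2 vs. CK18. Cluster-31803.51017 was at 3.73 and 1.49 FPKM in CK0 and at 0.22 to 1.61 FPKM at day 18, with no group standing apart. Of the 3 unigenes tested, Cluster-31803.51795 alone was past the thresholds, higher in CK18 vs. CK0 and lower in Nacl1 and Nacl2. In PEG1 and PEG2 it was 0 of 3. The shares of all unigenes past the thresholds are given above for each comparison, and nothing is read from these counts.

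Set side by side, the sums of the 3 enzymes took different courses. From CK0 to CK18 the log2 fold change was 6.70 (SE 0.36) for hydroxylamine reductase, 1.63 (SE 0.31) for formate C-acetyltransferase and -2.52 (SE 0.31) for pyruvate decarboxylase. Under high salinity all 3 lay on the side of CK18 toward or past day 0, with -5.03 (SE 0.32), -2.18 (SE 0.24) and 1.89 (SE 0.20). Under low salinity the values were -3.65 (SE 0.32), -1.99 (SE 0.24) and 0.42 (SE 0.20), and in PEG1 -3.91 (SE 0.33), -0.85 (SE 0.45) and 0.64 (SE 0.50). In PEG2 none was past the thresholds, at -0.37 (SE 0.33), -0.15 (SE 0.45) and -0.67 (SE 0.50). All 5 comparisons use the CK18 libraries. The sizes depended on scaling for all 3 enzymes. Hydroxylamine reductase was 5.76 in CK18 vs. CK0, -2.95 in Nacl1, -4.06 in Nacl2 and -3.30 in PEG1 without scaling, and 5.32, -2.57, -3.62 and -3.23 with quantile normalization. Without scaling, formate C-acetyltransferase was 0.69 in CK18 vs. CK0, -1.29 in Nacl1 and -1.21 in Nacl2, and pyruvate decarboxylase was 1.11 in Nacl1, 2.85 in Nacl2 and 1.24 in PEG1. With quantile normalization pyruvate decarboxylase was -0.01 in Nacl1, 0.89 in Nacl2 and 0.02 in PEG1.

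**Figure D4:**
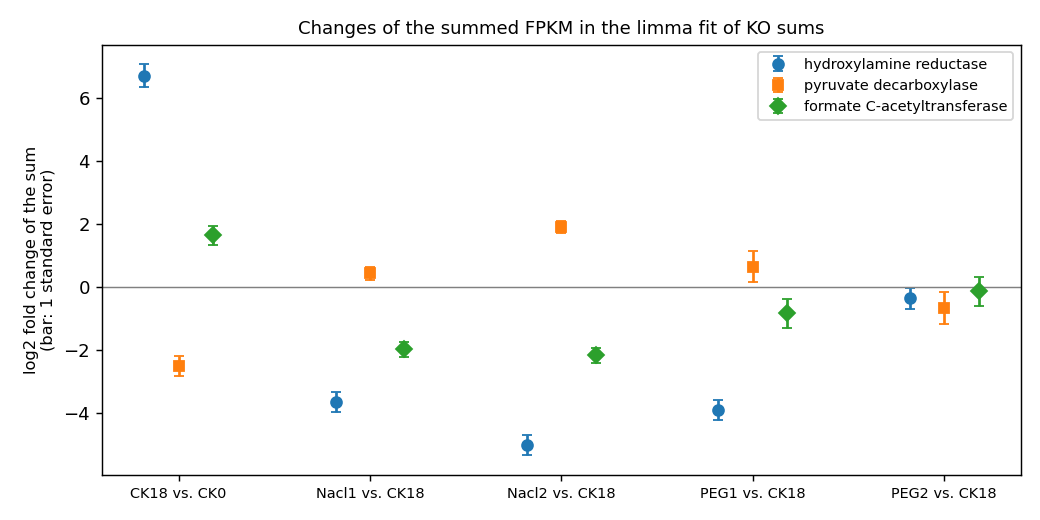
Log2 fold changes of the summed FPKM of the 3 enzymes in 5 comparisons, from the limma fits of sums by KO, with bars of 1 standard error. Hydroxylamine reductase was at 6.70 from CK0 to CK18 and between -5.03 and -3.65 in Nacl1, Nacl2 and PEG1, and pyruvate decarboxylase was at -2.52 from CK0 to CK18 and 1.89 in Nacl2. The pyruvate decarboxylase values in Nacl1, PEG1 and PEG2 (0.42, 0.64 and -0.67) were not past the thresholds, and with quantile normalization those in Nacl1 and PEG1 were -0.01 and 0.02.

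The 5 fermentation steps whose KO had no unigene were looked for by SwissProt name, a list made after the values were seen, so they are described only. Pyruvate formate-lyase-activating enzyme, the radical enzyme that installs the glycyl radical, summed over 7 unigenes to 35.9 and 51.4 FPKM in CK0, 107 and 142 in CK18, 195 and 146 in Nacl1, 63.2 and 57.3 in Nacl2, 120 and 125 in PEG1, and 118 and 157 in PEG2. It was therefore lowest in CK0 and Nacl2, and in Nacl1, where formate C-acetyltransferase was low, both libraries were above CK18 as deposited, with a log2 fold change of -0.25 (SE 0.19) after scaling. Aldehyde-alcohol dehydrogenase, which makes ethanol from acetyl-CoA, summed over 15 unigenes to 50.2 and 81.4 FPKM in CK0, 170 and 230 in CK18, 175 and 152 in Nacl1, 48.8 and 57 in Nacl2, 87.9 and 53.7 in PEG1, and 274 and 184 in PEG2. Here CK18, Nacl1 and PEG2 lay above CK0, Nacl2 and PEG1 without overlap. After scaling, its log2 fold change was 2.57 (SE 0.35) in CK18 vs. CK0 and, against CK18, -0.98 (SE 0.20) in Nacl1, -2.87 (SE 0.20) in Nacl2, -2.13 (SE 0.33) in PEG1 and 0.12 (SE 0.33) in PEG2.

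Pyruvate synthase or pyruvate oxidoreductase, which couples pyruvate oxidation to an electron carrier such as ferredoxin, had 30 unigenes with sums of 289 and 337 FPKM in CK0, 705 and 755 in CK18, 645 and 491 in Nacl1, 353 and 384 in Nacl2, 315 and 195 in PEG1, and 1182 and 547 in PEG2, again split between the same 2 sets of groups. After scaling it was at -1.08 (SE 0.15) in Nacl1, -1.96 (SE 0.15) in Nacl2, -2.17 (SE 0.39) in PEG1 and 0.08 (SE 0.39) in PEG2 against CK18, and 2.17 (SE 0.28) in CK18 vs. CK0. The acetate end differed. Acetate kinase, which makes ATP and acetate from acetyl phosphate, was at 107 and 104 FPKM in CK18 and higher in every other library, from 108 in PEG2 to 271 in PEG1 (20 unigenes). Phosphate acetyltransferase, which makes that acetyl phosphate, was at 123 and 115 FPKM in Nacl2 against 22.9 to 64 FPKM in all others (14 unigenes). These levels are on the deposited scale. After scaling, the log2 fold change of phosphate acetyltransferase against CK18 was 0.89 (SE 0.17) in Nacl2, -0.03 (SE 0.17) in Nacl1, -0.89 (SE 0.27) in PEG1 and 0.37 (SE 0.27) in PEG2. For acetate kinase it was -0.31 (SE 0.12) in Nacl1, -0.39 (SE 0.12) in Nacl2, 0.47 (SE 0.29) in PEG1 and 0.31 (SE 0.29) in PEG2. Its direction under salt thus depended on the scaling. In CK18 vs. CK0 the scaled values were 0.05 (SE 0.28) for acetate kinase and 0.11 (SE 0.31) for phosphate acetyltransferase. The lower FPKM of both in CK18 than in CK0 was therefore seen on the deposited scale only.

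**Figure D5:**
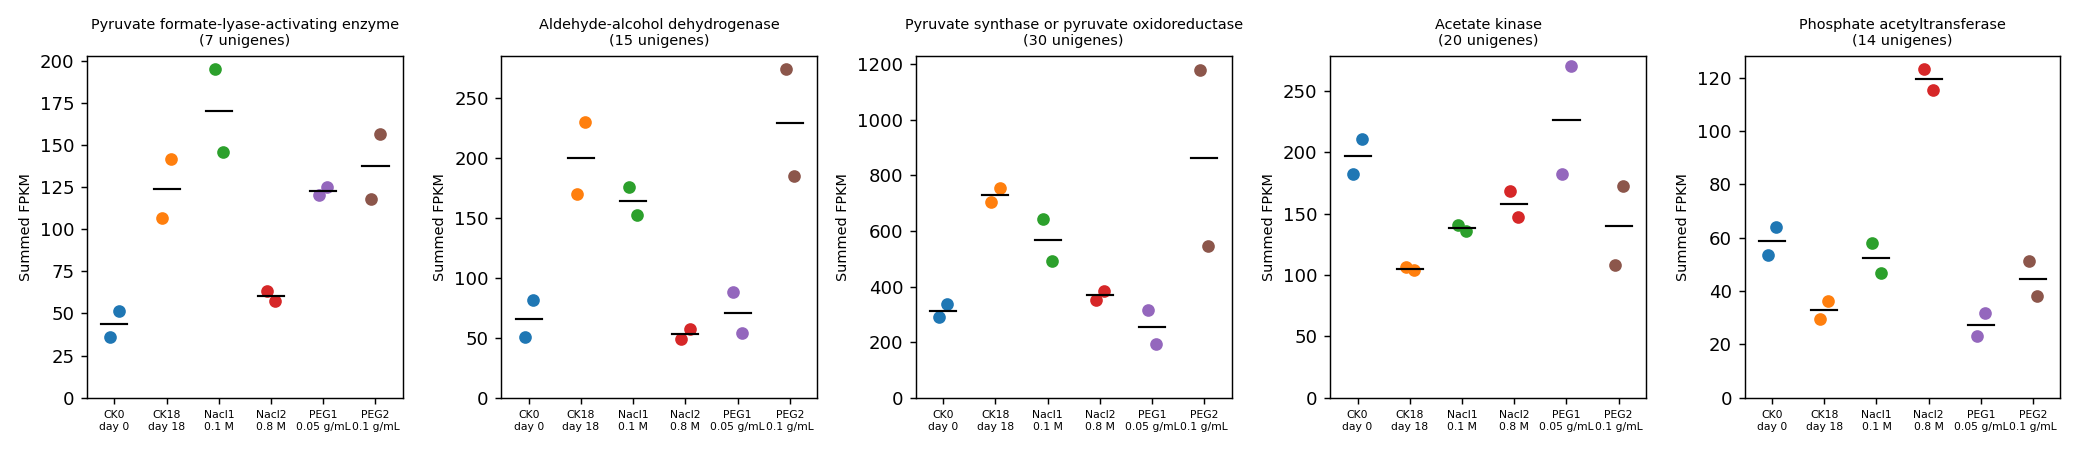
Summed FPKM of 5 fermentation enzymes found by SwissProt name, by group on linear axes, each point a library and each bar the mean of 2. Aldehyde-alcohol dehydrogenase and pyruvate synthase or oxidoreductase were higher in CK18, Nacl1 and PEG2 than in CK0, Nacl2 and PEG1, and phosphate acetyltransferase was highest in Nacl2 at 123 and 115 FPKM (0.89 on the log2 scale against CK18 after scaling).

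The neighbouring steps were followed through 38 related KO IDs in 4 groups, of which 18 had unigenes. FPKM was summed by KO and tested with limma over all KO sums, with Benjamini-Hochberg adjustment. The list of related KO IDs was written with results of these data known. Its counts and p-values are therefore a description. At the same thresholds, 7 related KO sums rose and 6 fell of 17 tested in CK18 vs. CK0, where 50.5% of all KO sums passed (25.6% higher and 24.9% lower), and without scaling 2 rose and 8 fell. In Nacl1 vs. CK18, 5 of 18 rose and 0 fell (19.3% of all KO sums passed, 10.7% higher and 8.62% lower), and in Nacl2 vs. CK18, 5 of 18 rose and 1 fell (47.3%, 25.4% higher and 21.9% lower). In PEG1 vs. CK18, 3 of 17 rose (22.7%, 10.6% higher and 12.1% lower), and in PEG2 vs. CK18, 1 of 17 rose (1.23%, 0.486% higher and 0.745% lower). Without any 1 of the CK18 or PEG1 libraries no related sum passed in PEG1, with 2 to 6 at an unadjusted p below 0.05, and without PEG2 replicate 1 or PEG2 replicate 2 the PEG1 count was 6.

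By group, the lactate, ethanol and alanine ends (6 sums) gave 2 up and 4 down in CK18 vs. CK0 and 3 up and 1 down in Nacl2 vs. CK18, with 2 up in Nacl1, 1 up in PEG1 and none past the thresholds in PEG2. Aldehyde dehydrogenase (K00128), which oxidizes acetaldehyde to acetate, was like pyruvate decarboxylase highest in CK0 and then Nacl2, at 955 and 849 FPKM in CK0, 21.1 and 26.8 in CK18, 135 and 92.3 in Nacl1, 766 and 679 in Nacl2, 80.9 and 137 in PEG1, and 62.2 and 176 in PEG2. It fell by 4.29 on the log2 scale in CK18 vs. CK0 (SE 0.27, limma adjusted p = 4.18e-08) and rose by 1.53 in Nacl1 (SE 0.20, limma adjusted p = 0.00109) and 3.95 in Nacl2 (SE 0.20, limma adjusted p = 1.12e-05). D-lactate dehydrogenase (K03778), which reduces pyruvate to lactate, rose from 16.1 and 19 FPKM in CK18 to 88.9 and 61.8 in Nacl1 (log2 fold change 1.38, SE 0.19, limma adjusted p = 0.00147) and 51.1 and 66.6 in PEG1 (1.12, SE 0.33, limma adjusted p = 0.0391). It also rose in Nacl2, at 84.6 and 79.2 FPKM (1.25, SE 0.19, limma adjusted p = 0.000858), and fell by 3 in CK18 vs. CK0 from 281 and 261 FPKM (SE 0.27, limma adjusted p = 1.18e-06). S-(hydroxymethyl)glutathione dehydrogenase (K00121), a class III alcohol dehydrogenase that clears formaldehyde, rose from 44.4 and 36.4 to 342 and 349 FPKM in Nacl2 (2.13, SE 0.15, limma adjusted p = 2.29e-05), after a fall of 2.03 in CK18 vs. CK0 (limma adjusted p = 2.3e-05).

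The acetate, formate and hydrogen group had 3 sums. Formate dehydrogenase (K00122), which oxidizes the formate that formate C-acetyltransferase makes, was at 196 and 243 FPKM in CK0 and 7.75 and 9.21 in CK18, a log2 fold change of -3.73 (SE 0.31, limma adjusted p = 5.2e-07). It rose to 41.6 and 37.8 FPKM in Nacl2 (1.25, SE 0.17, limma adjusted p = 0.000548). Acetyl-CoA synthetase (K01895), which activates acetate, was the 1 related sum that passed in PEG2 vs. CK18, at 8384 and 12942 against 1333 and 1904 FPKM (2.65, SE 0.35, limma adjusted p = 0.0225). It also rose in Nacl2, at 7687 and 6839 FPKM (1.21, SE 0.24, limma adjusted p = 0.00317), and fell by 1.75 in CK18 vs. CK0 from 8183 and 13044 FPKM (SE 0.34, limma adjusted p = 0.000587). The PEG2 count was 0 without either CK18 library, with 3 and 4 sums at an unadjusted p below 0.05, 2 without PEG2 replicate 1 and 6 without PEG2 replicate 2. Of 5 sums of pyruvate dehydrogenase and pyruvate carboxylase, 2 rose in CK18 vs. CK0, 2 in Nacl1 and 1 in PEG1, where the E2 subunit of pyruvate dehydrogenase (K00627) went from 90.6 and 97 to 287 and 388 FPKM (1.22, SE 0.26, limma adjusted p = 0.0153). K00627 was also among those that rose in Nacl1, at 357 and 371 FPKM (1.25, SE 0.12, limma adjusted p = 0.000402). Among those that rose in CK18 vs. CK0 was the E1 alpha subunit (K00161), by 1.02 (SE 0.26) after scaling. As deposited, its CK0 libraries (192 and 174 FPKM) and CK18 libraries (197 and 188 FPKM) overlapped, so that rise depended on the scaling.

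Among nitrogen oxide and ferredoxin genes, nitrate reductase (K10534), the first step of nitrate use, was at 20.2 and 25.4 FPKM in CK0, 104 and 163 in CK18, 795 and 684 in Nacl1, 452 and 456 in Nacl2, 140 and 108 in PEG1, and 79.4 and 210 in PEG2. It rose in CK18 vs. CK0 (3.46, SE 0.33, limma adjusted p = 1.7e-06) together with hydroxylamine reductase, and rose again in Nacl1 (1.80, SE 0.21, limma adjusted p = 0.000829), where the hydroxylamine reductase pool was lower. Ferredoxin-NADP+ reductase (K02641), which passes electrons between ferredoxin and NADPH, rose in PEG1 from 187 and 125 to 767 and 1273 FPKM (2.08, SE 0.58, limma adjusted p = 0.0343). In CK18 vs. CK0 its log2 fold change after scaling was 1.24 (SE 0.28, limma adjusted p = 0.00168). As deposited, the CK0 libraries (143 and 108 FPKM) and the CK18 libraries (187 and 125 FPKM) overlapped, so this rise depended on the scaling.

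Of 2242 KO sums with a mean of at least 10 FPKM, the 5 whose scaled log2 values were most like those of the hydroxylamine reductase pool over the 12 libraries were EIF4A (K03257, Pearson r 0.981), RPSA (K02998, 0.981), FDXR (K18914, 0.978), EEF2 (K03234, 0.975) and PABPC (K13126, 0.968). These are 4 components of translation and an NADP+-ferredoxin/adrenodoxin reductase. The measure ignores amplitude and all sums share the scaling of each library. Without scaling the same correlations were 0.919, 0.805, 0.966, 0.863 and 0.903. FDXR spanned 26.8 to 749 FPKM over the libraries, with the highest values in CK18 and PEG2, while EIF4A spanned 644 to 1342 FPKM. For formate C-acetyltransferase the 5 most alike were ZDHHC (K18932, 0.949), a KDEL-tailed cysteine endopeptidase (K16292, 0.944), tlyA (K06442, 0.936), K06867 (0.928) and TNNI3K (K17535, 0.926), and without scaling the ZDHHC value was 0.344. These correlations over 6 groups of 2 libraries are given as a description.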

How the data were processed

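RNA-seq libraries were made by the authors from 12 RNA samples, 2 per group. The authors assembled the reads with Trinity, clustered transcripts into unigenes with Corset, aligned reads with Bowtie 2, estimated counts with RSEM and deposited them as FPKM with an annotation table, which were the files used here. The authors' own DEG calls came from counts with DESeq. Counts were not used here, so limma on FPKM took the place of that test. The deposited FPKM was divided by median-ratio factors (0.746 to 1.52 for unigenes, 0.665 to 1.62 for KO sums), log2 transformed with a pseudocount of 0.1 and fitted with limma 3.58.1 (R 4.3.3), two-sided, with an intensity trend. Salt (CK18, Nacl1, Nacl2), PEG (CK18, PEG1, PEG2) and age (CK0, CK18) had separate fits, tested after a filter of 0.3 FPKM in at least 2 libraries. The study calls the 2 libraries of a group biological replicates, GEO's labels do not say whether they came from separate cultures, and p-values measure the spread between these samples. The scripts were tested on simulated data.

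Named were the 8 hydroxylamine reductase unigenes and up to 3 per other enzyme with the highest mean FPKM (at least 1), the 5 KO sums most correlated with hydroxylamine reductase and with formate C-acetyltransferase, and up to 3 related KO sums per comparison with the largest change. Further unigenes were named after their values were seen, as stated there. The members and all lists were chosen with earlier results of these data known. The hydroxylamine reductase unigenes with K14328 were taken out of that KO sum. FPKM does not give fragment counts, so no counting interval is given. Alternatives were other pseudocounts, filters and scalings, 1 fit of all 12 libraries, a replicate block, leaving out each library and, chosen after seeing the data, length-weighted sums.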

Additional observations from a re-analysis of the deposited data

How the results depend on the processing

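No result past the thresholds changed its sign under any alternative run. The members past the thresholds numbered 13 in Nacl1 and 10 in PEG1 without the filter on low values, and 3 in PEG2 with a pseudocount of 0.01 and 2 with all 12 libraries in 1 fit. The related KO sums without scaling numbered 11 in Nacl1, 15 in Nacl2 and 10 in PEG1. They numbered 6 in PEG1 with quantile normalization, 12 in Nacl2 with the factors of the unigenes, 6 in PEG1 and 4 in PEG2 with all 12 libraries in 1 fit, and 0 in PEG2 with length-weighted sums, where limma gave 5 an unadjusted p below 0.05. Leaving out 1 library gave 17 to 26 members in CK18 vs. CK0, 0 to 6 in Nacl1, 16 to 32 in Nacl2, 0 to 18 in PEG1 and 0 in PEG2, and 10 to 13, 4 to 7, 5 to 8, 0 to 6 and 0 to 6 related sums in the same order. Where this left a group with 1 library, it was assumed to vary like the others. The cause of these differences was not tested.

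Libraries with the same number in different groups did not deviate together (correlation of deviations -0.0409 to 0.0915 over 15 pairs of groups), so the numbers were not taken as pairs. With a replicate block, 7 members passed in Nacl1 and 0 in PEG1, where limma gave 26 of 39 an unadjusted p below 0.05. Without the block, limma gave it to 29 of 39 members in PEG1, beside 22236 of 73149 unigenes. Nothing is read from these counts.

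FPKM without fragment counts, 2 libraries a group and fragments that share reads limit how firmly low values can be read. A value near 0, as in most pyruvate decarboxylase unigenes, cannot be told from a failed estimate.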
